A study of Mus musculus with 13 samples.

Results

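Transcripts of 10 genes that mark reactive astrocytes were followed across the midbrains of 13 male mice. The genes were Gfap, Vim, Nes, Cd44, Aspg, S1pr3, Tm4sf1, Cd109, Emp1 and Amigo2. They were taken by symbol, as a set named with earlier results of these data known, from the 49315 genes counted in every library. All 10 had at least 10 counts in at least 3 libraries and so were among the 19360 genes tested. In Cre- mice, 3 of the 10 transcripts, Gfap, Aspg and Cd109, were higher after MPTP than after saline, as were 2.23% of all genes tested. The same 3 were lower in Cre+ than in Cre- mice after MPTP, as were 1.03% of all genes. In Cre+ mice, the main test, by edgeR over all libraries, called none of the 10 and 0% of all genes with MPTP. DESeq2 called 75 of all genes higher and 8 lower there, and limma voom 183 and 111, but neither called any of the 10. The difference between the responses of the genotypes, tested as an interaction, passed for none of the 10 and for 0.0103% of all genes. The genotype calls after MPTP did not hold on 2 groups only or with a replicate block.

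All mice carried floxed Ripk3 alleles (Ripk3fl/fl), were backcrossed to C57BL/6J, were 8 to 12 weeks old, and received tamoxifen at 60 mg/kg on 5 days. Cre+ mice carried Aldh1l1-Cre/ERT2, a tamoxifen-activated recombinase under an astrocyte promoter, so Ripk3 is deleted in astrocytes. Cre- littermates carried no recombinase. MPTP, a toxin of dopaminergic neurons, was injected at 20 mg/kg daily for 5 days, with saline in the control animals, and tissue was taken 3 days later. The Cre+ MPTP group held 4 mice and the Cre- Saline, Cre+ Saline and Cre- MPTP groups 3 mice each, with 1 mouse per library. The libraries were made from whole midbrain homogenate, so other cell types still contributed Ripk3 and the transcripts described here. In such bulk RNA, fewer cells of a type and less RNA per cell cannot be told apart.

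The counts assigned to genes totalled 11489150 in the shallowest and 29397278 in the deepest library (median 24907639). Ripk3 itself had 4 to 11 counts per library in Cre- Saline, 6 to 10 in Cre+ Saline, 6 to 40 in Cre- MPTP and 4 to 19 in Cre+ MPTP midbrain, too few to check the genotype of single mice. All 12 astrocyte identity genes were detected in each group, and their summed level ranged from 3514 to 5368 CPM, which are counts scaled by the TMM library size, over the 13 libraries. A library stood apart: Cre- MPTP replicate 1 had the lowest total, 1.12% mitochondrial counts against 3.55% to 6.06% in the other 12 libraries, and the lowest summed astrocyte and neuron markers. Cre+ MPTP replicate 4 held 3096 CPM of skeletal and cardiac muscle transcripts, against 21.4 to 83.3 CPM elsewhere. Cre+ MPTP replicate 2 had the second-lowest total, 17713289 counts, and was set apart by the genes described here. Fold changes of the 10 genes that rest on these libraries are given with and without them. Fold changes of single other genes, and ratios to astrocyte genes, are given over all libraries only.

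Reactive astrocytes enlarge their cytoskeleton and remodel their surface. GFAP, vimentin and nestin are intermediate filament proteins. GFAP and vimentin form the mature astrocyte filament network, and nestin is a filament of neural progenitors that injured astrocytes can take up again. The surface genes encode a hyaluronan receptor (Cd44), a receptor for sphingosine 1-phosphate (S1pr3), small membrane-spanning proteins (Tm4sf1, Emp1), a GPI-anchored protein of the alpha-2-macroglobulin family that binds TGF-beta (Cd109) and an adhesion molecule (Amigo2), while Aspg encodes an asparaginase. In the usual scheme, Gfap, Vim, Cd44, Aspg and S1pr3 belong to the pan-reactive genes, Amigo2 to the neurotoxic A1 set, and Emp1, Tm4sf1 and Cd109 to the A2 set. Several of them are not restricted to astrocytes: Vim, Nes, Cd44, S1pr3 and Tm4sf1 are also made by vascular or other non-neural cells.

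Promoter windows of 250 bases upstream of the RefSeq start (GRCm38.p6) were found for 9 of the 10 genes, with Emp1 holding 2 windows. Each was searched on both strands for TTCNNNGAA (the STAT motif), TGANTCA (AP-1), the NF-kB motif and TATAAA. Of 32851 mouse promoter windows of this length, 7.02% held the STAT letters, 6.75% AP-1, 3.9% NF-kB and 12.4% TATAAA. The windows of Gfap and Aspg are printed because these transcripts moved most and together. That of Tm4sf1 is printed as an example of the genes that edgeR over all libraries called in no comparison. Vim, Nes, Cd44, S1pr3, Emp1 and Amigo2 were such genes too. Capitals mark the NF-kB letters. The Gfap window is chr11:102897201-102897450 (minus strand, within the annotated gene but with no exon base), the Aspg window chr12:112106433-112106682 (plus strand, its last 4 bases in the first exon) and the Tm4sf1 window chr3:57301989-57302238 (minus strand). All are written 5′ to 3′.
Gfap: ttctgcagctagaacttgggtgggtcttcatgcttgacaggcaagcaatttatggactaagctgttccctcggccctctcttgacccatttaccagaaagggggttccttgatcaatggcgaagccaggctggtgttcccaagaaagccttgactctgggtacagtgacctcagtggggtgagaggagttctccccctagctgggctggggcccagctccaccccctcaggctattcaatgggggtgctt
Aspg: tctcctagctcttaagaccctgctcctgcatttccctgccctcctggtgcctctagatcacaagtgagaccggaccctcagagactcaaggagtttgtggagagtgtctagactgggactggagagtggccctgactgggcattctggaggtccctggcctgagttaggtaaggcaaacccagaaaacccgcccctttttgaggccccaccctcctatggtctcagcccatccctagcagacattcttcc
Tm4sf1: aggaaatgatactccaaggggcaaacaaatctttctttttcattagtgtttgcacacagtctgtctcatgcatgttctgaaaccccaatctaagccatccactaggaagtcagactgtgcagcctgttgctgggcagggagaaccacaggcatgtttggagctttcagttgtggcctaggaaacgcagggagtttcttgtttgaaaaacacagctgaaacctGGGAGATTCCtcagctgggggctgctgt
The Gfap and Aspg windows held none of the 4 motifs. The Tm4sf1 window held 1 NF-kB match, which starts 28 bases before the transcript start. Among the windows not printed, that of Vim held 1 NF-kB match 223 bases and TATAAA 32 bases before the start. All 250 bases of the Vim window lay in annotated exons. The window of the upstream Emp1 start held 2 STAT matches, 120 and 22 bases before it, and 2 AP-1 matches, 145 and 25 bases before it. The matches at 22 and 25 bases overlap, and 54 bases of this Emp1 window lay in annotated exons. The windows of Nes, Cd44, S1pr3 and Amigo2 and the other Emp1 window held none of the 4. A match describes the letters of the window and nothing about binding.

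The genes differed widely in level. Per kilobase of exon, Gfap was the most abundant in every group, at 78.8 ± 8.71 CPM per kb (SD, n = 3) in Cre- Saline midbrain. Amigo2 followed at 11.2 ± 1.08, Vim at 8.27 ± 0.553 and Tm4sf1 at 3.88 ± 0.281 CPM per kb, and the ranges of these 4 genes did not touch. Nes (2.36 ± 0.409), Aspg (2.31 ± 0.0930) and S1pr3 (2.02 ± 0.632 CPM per kb) came next, with ranges that overlapped from each to the next. Emp1 (0.560 ± 0.0357), Cd44 (0.432 ± 0.0879) and Cd109 (0.340 ± 0.0407 CPM per kb) were lowest and also overlapped with their neighbours. The order in Cre+ Saline midbrain was the same except that Aspg and Nes, whose ranges overlapped, changed places.
After MPTP in Cre- mice the order changed. Aspg moved from the sixth to the third place, at 21.3 ± 12.8 CPM per kb (SD, n = 3), where its range overlapped those of Vim (21.8 ± 13.9) and Amigo2 (17.5 ± 4.26). Cd109 moved from the last place to the eighth, at 1.25 ± 0.200 CPM per kb, above Emp1 and Cd44 in mean but within their ranges. In Cre+ MPTP midbrain, Aspg was again in the fifth place (3.34 ± 1.88 CPM per kb, SD, n = 4) and Cd109 in the last (0.394 ± 0.127 CPM per kb).

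**Figure D1:**
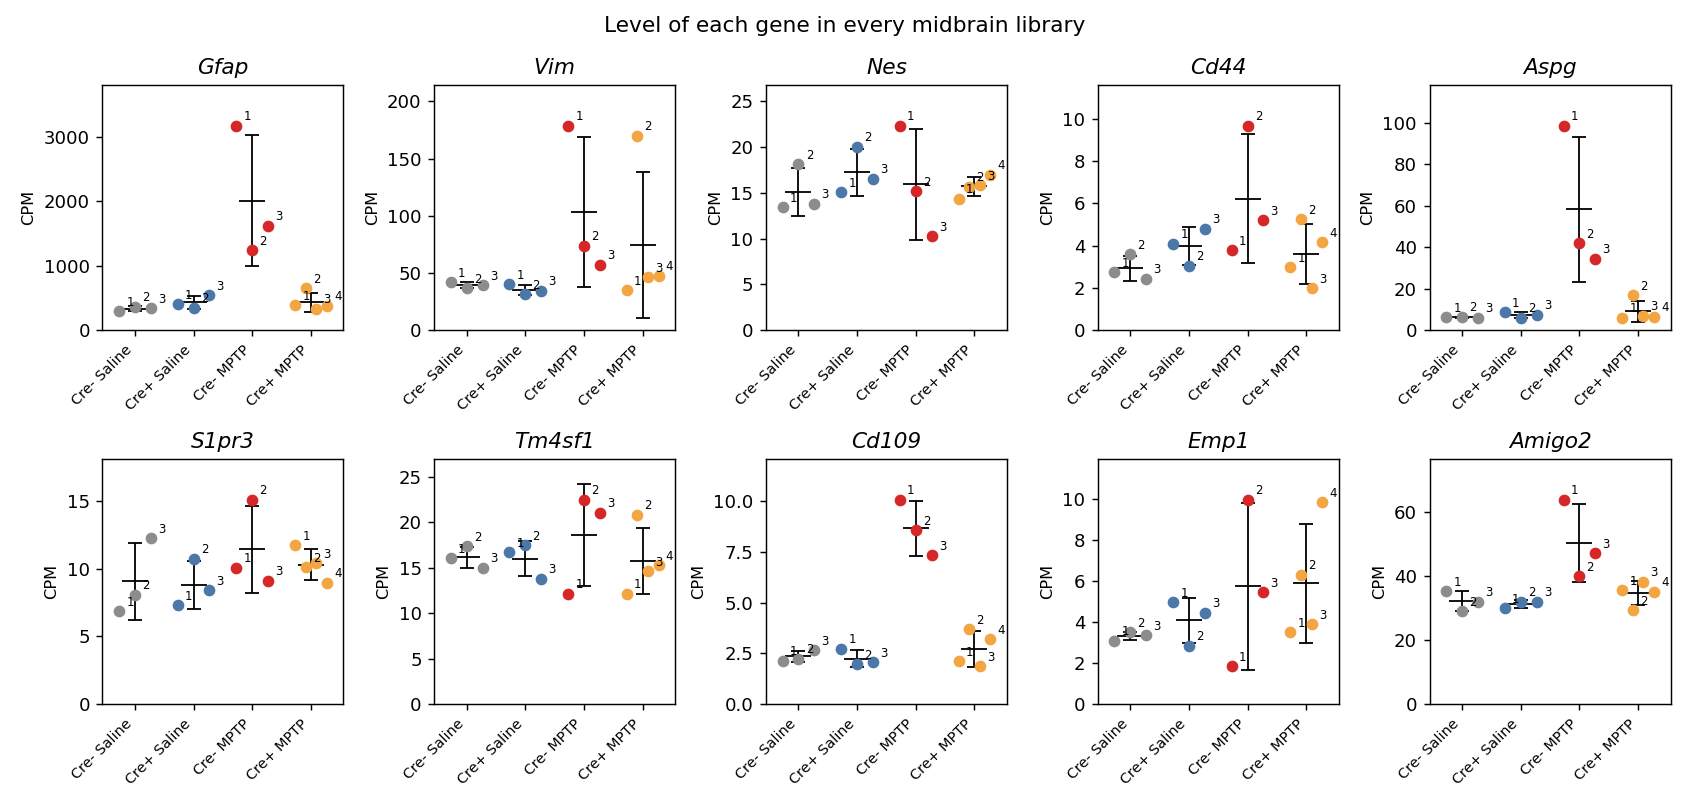
CPM (linear axes from 0, a scale per gene) of the 10 genes in each of the 13 libraries by group. Points are mice with their replicate numbers, and bars show the mean ± SD. The Cre- MPTP points of Gfap, Aspg and Cd109 sit above the points of all other groups, and replicate 2 is the highest Cre+ MPTP point of Gfap, Vim and Aspg.

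Gfap (ENSMUSG00000020932 on GRCm38 chromosome 11, 102887336 to 102900912, minus strand) encodes the main filament protein of reactive astrocytes. It was counted at 292, 363 and 342 CPM in the 3 Cre- Saline libraries and at 408, 351 and 544 CPM in the 3 Cre+ Saline libraries. The Cre- MPTP libraries held 3171, 1242 and 1623 CPM. The Cre+ MPTP libraries held 385, 655, 331 and 378 CPM. Every Cre- MPTP library was higher than every library of the other groups, whereas the Cre+ MPTP range overlapped both saline ranges. The log2 fold change with MPTP in Cre- mice was 2.60 (SE 0.354), a 6.06-fold rise. Its adjusted p was 0.00202 in the quasi-likelihood test of edgeR, adjusted by Benjamini-Hochberg over all genes tested, which is the adjusted p given throughout. In Cre+ mice the log2 fold change was 0.01 (SE 0.313, edgeR adjusted p = 0.99992). Between genotypes after MPTP, the log2 difference of Cre+ from Cre- was -2.20 (SE 0.316, edgeR adjusted p = 0.00827). Without Cre- MPTP replicate 1 these differences were 2.11 and -1.72, and Gfap stayed past the threshold in both (edgeR adjusted p = 0.00019 and 0.00147).

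Vim (ENSMUSG00000026728 on chromosome 2, 13573927 to 13582826, plus strand) encodes vimentin, the partner filament of GFAP. Its levels were 41.7, 36.5 and 39.4 CPM in Cre- Saline and 40.1, 31.5 and 34.7 CPM in Cre+ Saline midbrain. After MPTP they were 179, 74.0 and 57.3 CPM in Cre- mice and 35.2, 170, 46.4 and 47.6 CPM in Cre+ mice. All 3 Cre- MPTP libraries lay above the Cre- Saline libraries, but 1 Cre+ MPTP library, replicate 2, reached the level of the highest Cre- MPTP library. The log2 fold change with MPTP was 1.39 (SE 0.551, edgeR adjusted p = 0.267) in Cre- mice and 1.08 (SE 0.520, edgeR adjusted p = 0.99992) in Cre+ mice, and the genotype difference after MPTP was -0.46 (SE 0.503, edgeR adjusted p = 0.589). None of these passed the threshold. The values rest on 1 library in each MPTP group. Without Cre- MPTP replicate 1 the value in Cre- mice was 0.75 (edgeR adjusted p = 0.382) and the genotype difference turned to 0.18. Without Cre+ MPTP replicate 2 the value in Cre+ mice was 0.28. With both left out, a choice made after the levels were seen, Vim was higher with MPTP in Cre- mice (0.74, edgeR adjusted p = 0.0066) and lower in Cre+ than in Cre- MPTP midbrain (-0.61, edgeR adjusted p = 0.0362).

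Nes (ENSMUSG00000004891 on chromosome 3, 87971078 to 87980451, plus strand) encodes nestin. It ranged from 13.5 to 18.2 CPM in Cre- Saline, 15.1 to 20.1 CPM in Cre+ Saline, 10.3 to 22.3 CPM in Cre- MPTP and 14.4 to 17.0 CPM in Cre+ MPTP midbrain. The 4 ranges overlapped, and the highest and the lowest library of all were both in the Cre- MPTP group. Its log2 fold change was 0.06 (SE 0.243) with MPTP in Cre- mice and -0.13 (SE 0.226) in Cre+ mice, neither past the threshold (edgeR adjusted p = 0.921 and 0.99992). The sign in Cre- mice turned without Cre- MPTP replicate 1 (-0.25, edgeR adjusted p = 0.441).

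The make-up of the 3 filament transcripts changed with Gfap. Per kilobase, Gfap made up 86.4% to 89.1% of their sum in the 3 Cre- Saline libraries and 94.2% to 96.6% in the 3 Cre- MPTP libraries, and these ranges did not overlap. In Cre+ midbrain the share was 89.5% to 92.9% after saline and 80.2%, 86.5%, 87.6% and 90.4% after MPTP. The 80.2% belonged to Cre+ MPTP replicate 2, where Vim made up 18.5% of the sum against 7.36% to 10.8% in the other Cre+ MPTP libraries. That library differed from the Cre- MPTP libraries in the proportion of its filament transcripts and in the level of Gfap, whereas its levels of Vim and Nes lay within the Cre- MPTP ranges. Gfap was 4.33 times Vim per kilobase there and 18.9 to 31.8 times Vim in Cre- MPTP midbrain.

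Aspg (ENSMUSG00000037686 on chromosome 12, 112106679 to 112127559, plus strand), the asparaginase gene, had the largest fold change of the 10 with MPTP in Cre- mice. Its levels were 6.19, 6.60 and 6.13 CPM in Cre- Saline and 8.79, 6.02 and 7.50 CPM in Cre+ Saline midbrain. After MPTP they were 98.5, 41.9 and 34.5 CPM in Cre- mice and 6.06, 16.8, 7.01 and 6.60 CPM in Cre+ mice. The lowest Cre- MPTP library was above the highest library of any other group, and 3 of the 4 Cre+ MPTP libraries lay within the saline range. The log2 fold change with MPTP in Cre- mice was 3.20 (SE 0.460, edgeR adjusted p = 0.00253), a 9.20-fold rise. In Cre+ mice it was 0.29 (SE 0.405, edgeR adjusted p = 0.99992), and -0.18 without replicate 2. The genotype difference after MPTP was -2.68 (SE 0.405, edgeR adjusted p = 0.0113). Without Cre+ MPTP replicate 3 it was -2.57, just short of the threshold (edgeR adjusted p = 0.0508). Aspg was highest in Cre- MPTP replicate 1. With that library left out, its log2 fold change with MPTP in Cre- mice was 2.60 (edgeR adjusted p = 0.000374). The genotype difference after MPTP was then -2.09 (edgeR adjusted p = 0.00255).

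Cd109 (ENSMUSG00000046186 on chromosome 9, 78615546 to 78716253, plus strand), the TGF-beta binding surface protein, followed the same pattern at a low level. It was counted at 2.14, 2.23 and 2.67 CPM in Cre- Saline and at 2.72, 1.95 and 2.06 CPM in Cre+ Saline midbrain. The MPTP libraries held 10.1, 8.56 and 7.33 CPM in Cre- mice and 2.11, 3.69, 1.86 and 3.21 CPM in Cre+ mice. As for Gfap and Aspg, the Cre- MPTP libraries were apart from the other 10, and of these 3 genes Cd109 varied least within that group. The log2 fold change with MPTP in Cre- mice was 1.88 (SE 0.282, edgeR adjusted p = 0.0029), a 3.67-fold rise, and that in Cre+ mice 0.27 (SE 0.263, edgeR adjusted p = 0.99992). The genotype difference after MPTP was -1.67 (SE 0.256, edgeR adjusted p = 0.0113), and -1.56 without Cre+ MPTP replicate 1 (edgeR adjusted p = 0.0505).

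Amigo2 (ENSMUSG00000048218 on chromosome 15, 97244125 to 97247287, minus strand), the adhesion molecule of the A1 set, had 35.2, 29.0 and 31.9 CPM in Cre- Saline and 29.9, 31.9 and 31.8 CPM in Cre+ Saline midbrain. It had 63.7, 39.9 and 47.0 CPM in Cre- MPTP and 35.4, 29.3, 38.1 and 35.1 CPM in Cre+ MPTP midbrain. The Cre- MPTP libraries were again the 3 highest, but the differences were small. The log2 fold change with MPTP in Cre- mice was 0.64 (SE 0.173, edgeR adjusted p = 0.0742), and the genotype difference after MPTP was -0.54 (SE 0.160, edgeR adjusted p = 0.145). Neither passed the threshold with edgeR over all libraries. Over the same libraries, DESeq2 called both (0.68, adjusted p = 0.0138, and -0.57, adjusted p = 0.0471), and so did limma voom (0.56, adjusted p = 0.000912, and -0.34, adjusted p = 0.0471). With edgeR the first passed without Cre- MPTP replicate 1 (0.44, edgeR adjusted p = 0.0348) or replicate 2 (0.77, edgeR adjusted p = 0.025), and the second without replicate 2 (-0.67, edgeR adjusted p = 0.0348). Amigo2 shares 58 exon bases with Pced1b on the opposite strand, which had 91 to 289 counts per library, and the strand setting of the counting was not stated.

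Cd44 (ENSMUSG00000005087 on chromosome 2, 102811141 to 102901665, minus strand), the hyaluronan receptor, had 2.74, 3.59 and 2.45 CPM in Cre- Saline and 4.10, 3.05 and 4.80 CPM in Cre+ Saline midbrain. It had 3.79, 9.66 and 5.22 CPM in Cre- MPTP and 2.99, 5.26, 2.00 and 4.16 CPM in Cre+ MPTP midbrain. The Cre- MPTP libraries lay above the Cre- Saline libraries but overlapped both Cre+ groups. Its log2 fold change with MPTP was 1.10 (SE 0.393, edgeR adjusted p = 0.211) in Cre- mice and -0.15 (SE 0.364, edgeR adjusted p = 0.99992) in Cre+ mice. Without Cre- MPTP replicate 1, where Cd44 was lowest of its group, the first was 1.35 and passed the threshold (edgeR adjusted p = 0.0329).

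Emp1 (ENSMUSG00000030208 on chromosome 6, 135362545 to 135383173, plus strand), an epithelial membrane protein, had the widest ratio of highest to lowest value within a group, in Cre- MPTP midbrain. Its levels were 3.10, 3.51 and 3.36 CPM in Cre- Saline, 4.97, 2.85 and 4.45 CPM in Cre+ Saline, and 1.84, 9.98 and 5.45 CPM in Cre- MPTP midbrain. The Cre+ MPTP libraries held 3.51, 6.32, 3.90 and 9.84 CPM. The lowest of the 13 values was in Cre- MPTP replicate 1, and the highest Cre+ MPTP value was in replicate 4, the library with muscle transcripts. The part of those transcripts in it was not tested. The log2 fold change with MPTP was 0.82 (SE 0.506, edgeR adjusted p = 0.444) in Cre- mice and 0.53 (SE 0.474, edgeR adjusted p = 0.99992) in Cre+ mice, and 0.15 in Cre+ mice without replicate 4. With both Cre- MPTP replicate 1 and Cre+ MPTP replicate 4 left out, the value in Cre- mice was 1.22 and passed the threshold (edgeR adjusted p = 0.0212).

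S1pr3 (ENSMUSG00000067586 on chromosome 13, 51408639 to 51422797, plus strand) ranged from 6.87 to 12.3 CPM in Cre- Saline, 7.29 to 10.7 CPM in Cre+ Saline, 9.11 to 15.1 CPM in Cre- MPTP and 8.97 to 11.8 CPM in Cre+ MPTP midbrain. Tm4sf1 (ENSMUSG00000027800 on chromosome 3, 57285611 to 57301988, minus strand) ranged from 15.0 to 17.3, 13.8 to 17.5, 12.1 to 22.5 and 12.2 to 20.8 CPM in the same order. All groups overlapped for both genes. With MPTP in Cre- mice S1pr3 had a log2 fold change of 0.34 (SE 0.259, adjusted p = 0.536 by edgeR) and Tm4sf1 one of 0.21 (SE 0.241, adjusted p = 0.692). In Cre+ mice they were 0.23 (SE 0.243) and -0.03 (SE 0.225), both with an edgeR adjusted p of 0.99992. S1pr3 shares 45 exon bases with a noncoding gene on the opposite strand.

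**Figure D2:**
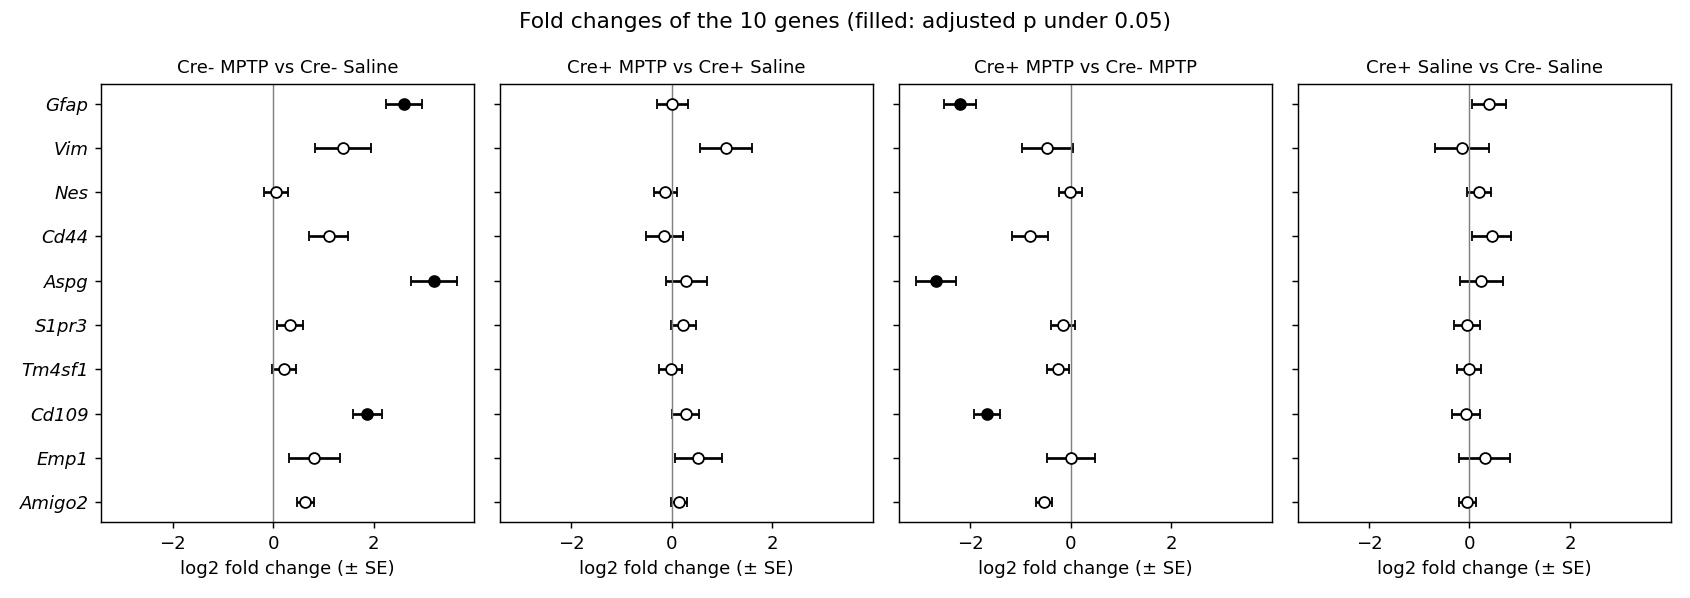
Log2 fold changes (x axis, ± SE from edgeR) of the 10 genes in 4 comparisons. Filled points have an adjusted p under 0.05. Gfap, Aspg and Cd109 are filled on the right in the Cre- MPTP response and on the left in the genotype difference after MPTP. No point is filled in the Cre+ MPTP response or between genotypes after saline.

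Set side by side, the 10 genes answered MPTP unequally in mice that kept Ripk3 in astrocytes. In the comparison of Cre- MPTP with Cre- Saline, 3 genes were called higher and 0 lower, where 2.23% of all 19360 genes tested were called higher and 0.956% lower. All 10 fold changes were positive, and 6 genes (Gfap, Vim, Cd44, Aspg, Cd109 and Amigo2) had groups that did not overlap, as 7.11% of all genes had in this direction. The median log2 fold change of the 10 was 0.96, and that of all genes 0.03. The value of Nes, 0.06, turned negative without Cre- MPTP replicate 1.

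In Cre+ mice, none of the 10 was called higher or lower with MPTP, and edgeR called 0% of all genes. At an unadjusted p under 0.05, 0 of the 10 and 672 of all genes passed. DESeq2 and limma voom also called 0 of the 10, where they called 75 and 183 of all genes higher and 8 and 111 lower. The median log2 fold change of the 10 was 0.19, with 7 positive. No gene had groups that did not overlap, against 9.66% of all genes in either direction. The SE of 0.16 to 0.52 on these fold changes allows for smaller differences that the test could not show.

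Between the genotypes after MPTP, Gfap, Aspg and Cd109 were lower in Cre+ mice and 0 of the 10 were higher, where 1.03% of all genes were called lower and 0.517% higher. The Cre+ libraries lay below all Cre- libraries for these 3 and for Amigo2, as they did for 5.07% of all genes. The median log2 difference of the 10 was -0.50. This comparison and the MPTP response of Cre- mice share the 3 Cre- MPTP libraries, so they are not independent of each other. When edgeR was fitted on these 7 libraries only, it called 0 of all genes and 0 of the 10, with Gfap at -2.23 (edgeR adjusted p = 0.2), Aspg at -2.70 (0.225) and Cd109 at -1.69 (0.207). DESeq2 over all libraries called 4 of the 10 lower, with Amigo2 as the fourth, and limma voom called 6, with Cd44 and Tm4sf1 besides. These tools also called more of all 19360 genes lower, 565 with DESeq2 and 736 with limma voom, against 199 with edgeR.

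After saline, no gene of the 10 differed between genotypes and edgeR called 0% of all genes, with 0 of the 10 and 176 of all genes at an unadjusted p under 0.05. DESeq2 and limma voom called 0 of the 10 here too. The largest of the 10 differences were those of Cd44 (0.45, SE 0.391) and Gfap (0.39, SE 0.335), both higher in Cre+ mice in mean and overlapping in range.

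The difference between the responses of the genotypes was tested as an interaction. Its log2 value was negative for all 10 genes but passed the threshold for none, and 0.0103% of all genes passed it. The largest were those of Aspg (-2.92, SE 0.592, edgeR adjusted p = 0.145), Gfap (-2.59, SE 0.461, edgeR adjusted p = 0.137), Cd109 (-1.60, SE 0.380, edgeR adjusted p = 0.216) and Cd44 (-1.25, SE 0.533, edgeR adjusted p = 0.795). At an unadjusted p under 0.05, 4 of the 10 and 1116 of all genes passed. DESeq2 and limma voom each called Gfap, Aspg and Cd109, where they called 140 and 398 of all genes lower. The Gfap interaction was called by edgeR without Cre- MPTP replicate 1 (-2.10, edgeR adjusted p = 0.015), Cre- MPTP replicate 2 (-2.83, 0.0498) or Cre+ MPTP replicate 2 (-2.84, 0.0155). That of Aspg was called without Cre- MPTP replicate 1 (-2.32, edgeR adjusted p = 0.0299) or Cre+ MPTP replicate 2 (-3.37, 0.0114).

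The libraries within a group did not move as a block across the 10 genes. Cre- MPTP replicate 1 was above the mean of its 2 group-mates for 6 genes, by 2.72-fold for Vim, 2.58-fold for Aspg, 2.21-fold for Gfap, 1.76-fold for Nes, 1.47-fold for Amigo2 and 1.27-fold for Cd109. It was below them for the other 4, at 0.239 times their mean for Emp1, 0.510 for Cd44, 0.557 for Tm4sf1 and 0.832 for S1pr3. In this library the summed level of 8 mural cell markers was 114 CPM against 202 to 365 CPM in the other 12 libraries, that of 10 endothelial markers 552 against 313 to 456 CPM, that of 8 neuron markers 2870 against 4078 to 4954 CPM and that of 6 ependymal markers 86.8 against 26.1 to 45.4 CPM. No mural, endothelial or ependymal marker was at 0 in any group, and the part of these cells or of RNA quality in the 10 genes' levels was not tested.

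Cre+ MPTP replicate 2 was above the mean of its 3 group-mates for 7 genes, by 3.95-fold for Vim, 2.56-fold for Aspg, 1.80-fold for Gfap, 1.72-fold for Cd44, 1.54-fold for Cd109, 1.49-fold for Tm4sf1 and 1.10-fold for Emp1. The summed level of the 8 other pan-reactive genes was 473 CPM there, against 113 to 126 CPM in the other Cre+ MPTP libraries and 1311 to 1479 CPM in Cre- MPTP midbrain. The summed level of the other A1 genes was 274 CPM, within the 254 to 282 CPM of its group-mates. H2-D1, a class I histocompatibility gene, makes up a large part of that A1 sum (133 ± 19.1 CPM, SD, n = 4), so the sum says little about the other A1 genes. Amigo2 stood at 0.808 times the mean of its group-mates. The summed level of the other A2 genes was 69.9 CPM in this mouse against 27.9 to 35.8 CPM in the other Cre+ MPTP libraries. Of the markers of other cells, its neutrophil sum was 3.92 against 0.611 to 1.42 CPM, its microglia sum 246 against 298 to 326 CPM and its oligodendrocyte sum 14860 against 11468 to 12435 CPM, and their part in its levels was not tested.

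**Figure D3:**
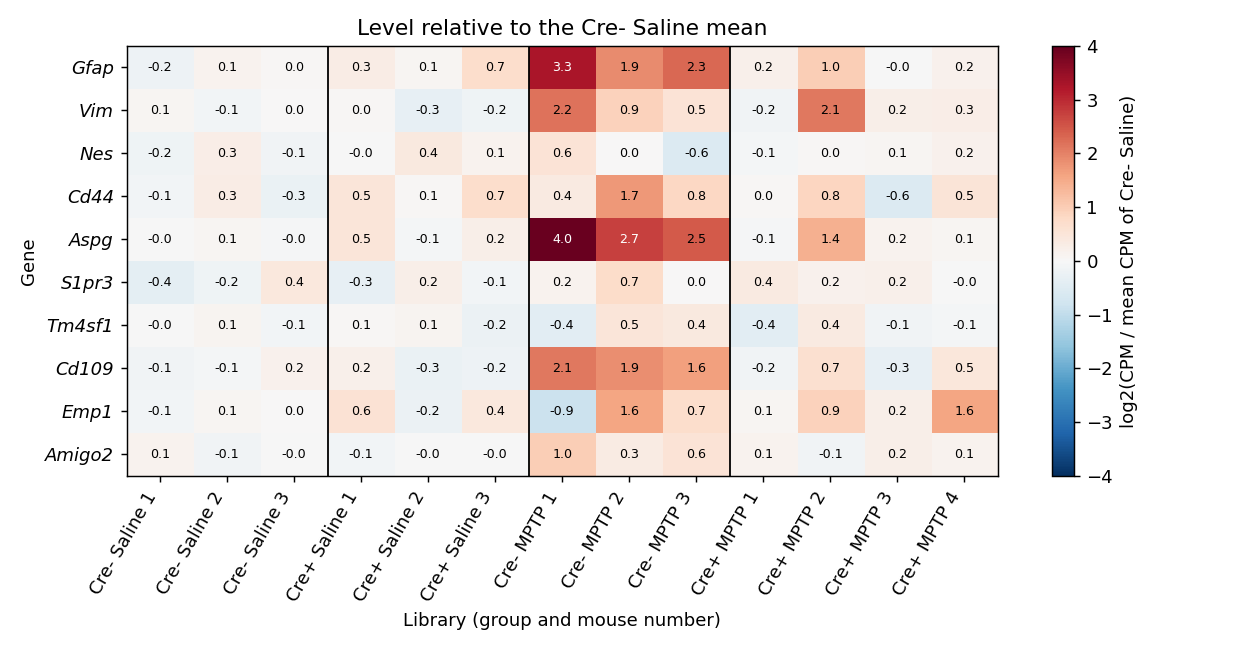
Log2 ratio of each library's CPM to the mean CPM of the Cre- Saline libraries (colour scale from -4 to 4, value printed in each cell) for the 10 genes (y axis) in the 13 libraries (x axis; lines separate the groups). Gfap, Aspg and Cd109 are high in all 3 Cre- MPTP libraries, and Cre+ MPTP 2 stands out in its group for Vim, Aspg and Gfap.

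The levels were also set against astrocyte genes. Gfap, Aspg and Cd109 were read in the comparisons in which they were called. Relative to the sum of the 12 identity genes, their differences were close to those in CPM, and relative to Aldh1l1 they were smaller. With MPTP in Cre- mice the ratio to that sum was higher by 2.52 on the log2 scale for Gfap, by 3.09 for Aspg and by 1.91 for Cd109. Between genotypes after MPTP the ratios differed by -2.26, -2.77 and -1.83. Aldh1l1, an astrocyte enzyme whose promoter drives the recombinase, itself rose with MPTP in Cre- mice (0.65, SE 0.154, edgeR adjusted p = 0.0403), and so did Agt (angiotensinogen; 0.76, SE 0.170, edgeR adjusted p = 0.0284). Relative to Aldh1l1 alone, the MPTP difference in Cre- mice was 1.84 for Gfap, 2.40 for Aspg and 1.23 for Cd109, and -0.02 for Amigo2. It was 0.57 for Vim and 0.35 for Cd44, but negative for Nes (-0.63), Tm4sf1 (-0.49), S1pr3 (-0.30) and Emp1 (-0.16). The genotype difference after MPTP was then -1.63 for Gfap, -2.15 for Aspg and -1.21 for Cd109. It was -0.26 for Cd44, -0.09 for Vim and -0.01 for Amigo2, but positive for Emp1 (0.73), Nes (0.56), S1pr3 (0.39) and Tm4sf1 (0.29). Of the 12 identity genes, Aldh1l1 and Agt were called higher and 0 lower with MPTP in Cre- mice. None of the 12 was called in the other comparisons. Sox9, an astrocyte transcription factor, stood at 1.04 (SE 0.343, edgeR adjusted p = 0.168).

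Markers of other cells also moved with MPTP in Cre- mice. Of the 10 endothelial markers, Tek was called lower with MPTP in Cre- mice and higher in Cre+ than in Cre- mice after MPTP, and the other 9 were not called. The summed mural markers were 114 to 241 CPM in Cre- MPTP against 305 to 348 CPM in Cre- Saline midbrain, with 1 of 8 called lower. Of the 8 oligodendrocyte markers, 3 were called lower with MPTP in Cre- mice and all 8 fold changes were negative, with sums of 9461 to 12159 CPM in Cre- MPTP, 12856 to 17787 CPM in Cre- Saline and 11468 to 14860 CPM in Cre+ MPTP midbrain. Of the 8 microglia markers, 2 were called lower there, with sums of 173 to 239 CPM in Cre- MPTP, 246 to 281 CPM in Cre- Saline and 246 to 326 CPM in Cre+ MPTP midbrain. Of the 8 meningeal fibroblast markers, 1 was called higher and 1 lower, and of the 5 markers of oligodendrocyte precursors 1 was called lower. None of the 8 neuron, 8 dopaminergic neuron or 6 ependymal markers was called in that comparison. No marker of these lists was at 0 in Cre- MPTP midbrain. Neutrophil transcripts, 8 markers with none at 0 in Cre- MPTP midbrain, summed to 10.7 to 65.1 CPM there and to at most 3.92 CPM in each other library, and 4 of the 5 markers tested were called higher there. The oligodendrocyte markers were lower with MPTP in Cre+ mice too, where all 8 fold changes were negative and 0 were called. Their sums there were 11468 to 14860 CPM after MPTP and 15523 to 17393 CPM after saline. Markers of other cells thus changed in the Cre- MPTP libraries, where Gfap, Aspg and Cd109 were high, but the oligodendrocyte change was not limited to those libraries. The part of these markers in the levels of the 10 genes was not tested.

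The other genes of the reactive programme were compared by list, and the same libraries enter each comparison. With MPTP in Cre- mice, all 8 other pan-reactive genes were called higher, among them Lcn2 (lipocalin 2; 9.67, SE 1.09), Serpina3n (a secreted protease inhibitor; 4.66, SE 0.655) and Timp1 (an inhibitor of metalloproteinases; 4.84, SE 0.707). Of 10 tested A1 genes other than Amigo2, 9 were called higher, and of 9 other A2 genes 5 were, among them Cd14 (a co-receptor for lipopolysaccharide; 2.86, SE 0.338). The median log2 fold change was 4.41 in the pan-reactive list, 1.79 in the A1 list and 2.86 in the A2 list, against 0.96 in the 10 filament and surface genes and 0.03 in all genes. In Cre+ compared with Cre- midbrain after MPTP, 5 of the 8 pan-reactive genes, 5 of the 10 A1 genes and 3 of the 9 A2 genes were called lower and 0 higher. In Cre+ mice with MPTP, edgeR called none of these genes and 0% of all genes. All 8 pan-reactive, all 10 A1 and 6 of the 9 A2 fold changes were positive (medians 1.60, 0.67 and 0.51). The groups did not overlap, with MPTP higher, for 4, 8 and 0 of them, against 9.66% of all genes in either direction. Lcn2 had 15.4 to 153 CPM in Cre+ MPTP and 0.610 to 1.22 CPM in Cre+ Saline midbrain.

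Genes that work with the 10 were mostly not called. Of 15 other filament and linker genes, Synm (synemin, a large filament protein that joins vimentin-type filaments) was higher with MPTP in Cre- mice (1.26, SE 0.228, edgeR adjusted p = 0.00808) and lower in Cre+ than in Cre- MPTP midbrain (-1.06, SE 0.209, edgeR adjusted p = 0.0278). Its CPM was 42.3 to 72.5 in Cre- Saline, 109 to 158 in Cre- MPTP and 57.6 to 89.9 in Cre+ MPTP midbrain, so the Cre- MPTP libraries were apart. Bfsp2 was called lower with MPTP in Cre- mice (-1.43, SE 0.267, edgeR adjusted p = 0.00996), and the other 13, with the neurofilaments and lamins, were not called. Bfsp2 was also lower in Cre+ mice, at 3.01 to 6.15 CPM after MPTP against 6.86 to 7.77 CPM after saline, without being called. Plec (plectin, a linker of filaments) stood at 0.99 (SE 0.339, edgeR adjusted p = 0.188) and Lmna (lamin A/C) at 1.18 (SE 0.478, edgeR adjusted p = 0.283). In Cre- MPTP midbrain Lmna had 41.7, 41.9 and 209 CPM from lowest to highest, against 39.2 to 46.3 CPM in Cre- Saline. Plec had 235, 240 and 639 CPM, against 131 to 240 CPM. The values of both thus rest largely on the highest Cre- MPTP library.
Of 18 genes of hyaluronan metabolism and CD44 partners, only Msn (moesin, which ties CD44 to actin) was called with MPTP in Cre- mice (1.33, SE 0.310, edgeR adjusted p = 0.0351). Msn had 48.2 to 94.1 CPM in Cre- MPTP and 44.4 to 94.9 CPM in Cre+ MPTP midbrain, and was not called between genotypes. Its Cre+ MPTP libraries lay above the Cre+ Saline libraries (27.7 to 35.7 CPM). The 3 hyaluronan synthases were not called: Has1 stood at 0.50 (SE 0.264), Has2 at -0.49 (SE 0.658) and Has3 at 0.35 (SE 0.249).
Of 11 genes of the sphingosine 1-phosphate pathway, only the receptor S1pr1 was called, lower with MPTP in Cre- mice (-0.69, SE 0.118, edgeR adjusted p = 0.00586), while its relative S1pr3 stood at 0.34. S1pr1 had 139 to 162 CPM in Cre- Saline, 85.2 to 103 CPM in Cre- MPTP and 115 to 129 CPM in Cre+ MPTP midbrain, and these 3 ranges did not overlap. Spns2, a sphingosine 1-phosphate exporter, stood at 0.58 (SE 0.148, edgeR adjusted p = 0.0589).
Of 12 tested relatives of the surface genes and TGF-beta genes, A2m and Emp2 were called. A2m (alpha-2-macroglobulin, of the family of Cd109) was higher with MPTP in Cre- mice (3.00, SE 0.342, edgeR adjusted p = 0.00085) and lower in Cre+ than in Cre- MPTP midbrain (-1.86, SE 0.297, edgeR adjusted p = 0.0122). Emp2, the relative of Emp1, went the other way: it was lower with MPTP in Cre- mice (-0.96, SE 0.152, edgeR adjusted p = 0.00387) and higher in Cre+ than in Cre- MPTP midbrain (0.82, SE 0.144, edgeR adjusted p = 0.0172). The TGF-beta genes were not called, with Tgfb1 at 1.30 (SE 0.475, edgeR adjusted p = 0.224) and Tgfbr2 at 0.52 (SE 0.144, edgeR adjusted p = 0.0852). In these 4 lists, edgeR called 0 genes with MPTP in Cre+ mice, between genotypes after saline, and in the interaction.

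**Figure D4:**
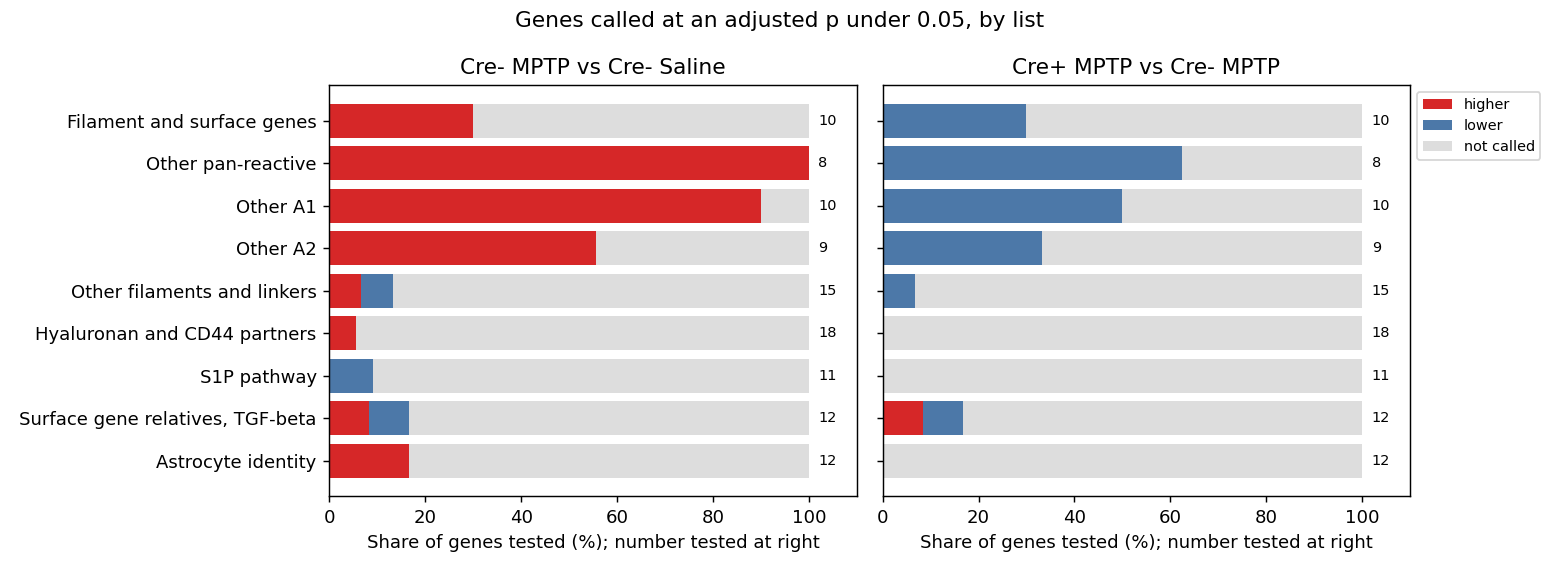
Share of the genes tested (x axis, %; number tested at the right of each bar) called higher (red), called lower (blue) or not called (grey) at an edgeR adjusted p under 0.05, by list, for the MPTP response in Cre- mice (left) and the genotype difference after MPTP (right). All 8 other pan-reactive genes are red on the left, and the filament, hyaluronan and sphingosine 1-phosphate lists are mostly grey.

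Across the 13 libraries, likeness of pattern was measured by Pearson's r on log2 CPM. The libraries share the group structure, so r is a description of these libraries. Among the 10 genes, Gfap and Aspg (0.978), Aspg and Cd109 (0.958) and Gfap and Cd109 (0.934) were most alike, and Nes and Tm4sf1 least (-0.386). Among the genes tested other than the 10, Dbndd2 (0.988), Tnfsf11 (0.984) and Maff (0.978) were most like Gfap. Nfkbiz (0.988), Igfbp3 (0.985) and Mt2 (0.984) were most like Aspg, and Nfkbiz (0.976), Rhoj (0.973) and Stat3 (0.971) were most like Cd109. Nfkbiz, an NF-kB cofactor, was thus the closest gene to both Aspg and Cd109. The genes most like Amigo2 were Shisa5 (0.982) and the class I histocompatibility genes H2-T23 (0.973) and H2-D1 (0.969). Actn1, an actin cross-linker, was most like Vim (0.974). The remaining genes had weaker partners: Cflar for Emp1 (0.919), Kndc1 for S1pr3 (0.899), Stk32a for Cd44 (0.887), Gm38642 for Tm4sf1 (0.876) and 2510046G10Rik for Nes (0.842).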

How the data were processed

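Midbrain RNA of 13 mice was sequenced from stranded total RNA libraries, 1 mouse per library. Per the submitters' processing notes and the study's methods, the authors used Trimmomatic 0.36 for trimming, STAR 2.5.2b for mapping to GRCm38 and featureCounts (Subread 1.5.2) for counting unique hits. The strand setting is not given in the sources used here. The deposited values are raw counts for 49315 genes. GENCODE M21 gave symbols to 49056 of them and positions.

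Counts were tested with edgeR 4.0.16 in R 4.3.3 (TMM, at least 10 counts in at least 3 libraries, 1 term per group over all libraries, quasi-likelihood test), with Benjamini-Hochberg adjustment over the 19360 genes tested and a threshold of 0.05. The standard error is the absolute log2 fold change divided by the square root of F. CPM use TMM library sizes. The fits were checked on simulated data. Alternatives were DESeq2 1.42.0, limma 3.58.1 voom, other scaling, filters and libraries, a replicate block and leave-one-out. The members and all lists were chosen with earlier results of these data known, so their counts are no independent support; genes outside the 10 were named from these lists, when called or as pathway examples, or as the 3 with the highest r. The p-values cover the spread between mice. Total counts limit the precision of genes with few counts, such as Cd44, Cd109 and Emp1. Promoters are from RefSeq (GRCm38.p6).

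Deviations of same-numbered libraries from their group means correlated between -0.179 and 0.184, with values below 0 among them. With so few libraries per group, these correlations cannot decide whether replicate numbers pair the libraries.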

Additional observations from a re-analysis of the deposited data

Results flagged for a closer look

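In the Cre+ MPTP group, replicate 2 lay far from the other 3 mice for 3 of the 10 genes: Gfap at 655 CPM, Vim at 170 CPM and Aspg at 16.8 CPM. The gap between this mouse and the next was a larger share of the group's range than Dixon's 95% critical value for 4 samples allows. Chance passes it in about 5% of groups, and the 3 genes come from the same library. The groups of 3 were not tested in this way. Without this mouse, the log2 fold change with MPTP in Cre+ mice was -0.26 for Gfap, 0.28 for Vim and -0.18 for Aspg.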

How the results depend on the processing

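The calls of Gfap, Aspg and Cd109 with MPTP in Cre- mice held under every alternative run. Those between genotypes after MPTP did not hold on 2 groups only or with a replicate block, nor for Aspg without Cre+ MPTP replicate 3 or for Cd109 without Cre+ MPTP replicate 1. Cre- MPTP replicate 1 and Cre+ MPTP replicates 2 and 4 decide several values, and low counts limit Cd44, Cd109 and Emp1. Where a value changed, the cause was not tested.

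For MPTP in Cre- mice, edgeR called 431 of all genes higher and 185 lower. The counts were 757 and 380 with DESeq2, 1373 and 1251 with limma voom, 105 and 5 on 2 groups, 1059 and 864 without Cre- MPTP 1 and Cre+ MPTP 4, and 1045 and 942 without Cre- MPTP 1 and Cre+ MPTP 2. Of the 10 genes, limma voom called 5 higher, and either pair of libraries left out gave 6. With MPTP in Cre+ mice (0 and 0) the counts were 8 and 1 with no filter, 75 and 8 with DESeq2, 183 and 111 with limma voom, 14 and 1 on 2 groups, 36 and 2 without Cre- MPTP 1 and Cre+ MPTP 4, and 100 and 41 without Cre- MPTP 1 and Cre+ MPTP 2. Between genotypes after MPTP (100 higher and 199 lower) they were 269 and 565 with DESeq2, 488 and 736 with limma voom, 0 and 0 on 2 groups, 211 and 346 without Cre- MPTP 1 and Cre+ MPTP 4, and 278 and 479 without Cre- MPTP 1 and Cre+ MPTP 2. Of the 10 genes, limma voom called 6 lower, 2 groups 0, and the fit without Cre- MPTP 1 and Cre+ MPTP 2 called 6. After saline (0 and 0), DESeq2 called 2 higher, limma voom 2 higher and 1 lower, 2 groups 6 higher, and the fit without Cre- MPTP 1 and Cre+ MPTP 2 called 2 higher. For the interaction (2 higher, 0 lower), DESeq2 size factors gave 1 higher, no filter 7 lower, DESeq2 83 and 140, limma voom 291 and 398, the fit without Cre- MPTP 1 and Cre+ MPTP 4 gave 101 and 119, and that without Cre- MPTP 1 and Cre+ MPTP 2 160 and 249. Of the 10, no filter called 1 lower, DESeq2 3, limma voom 3, and those left-out pairs 2 and 3. The pair of Cre- MPTP 1 and Cre+ MPTP 2 was chosen after seeing the data.

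With a replicate block, edgeR called 297 higher and 131 lower with MPTP in Cre- mice, and the 3 of the 10 were called. Between genotypes after MPTP the block gave 0 higher and 0 lower and 0 of the 10 (Gfap -2.11, edgeR adjusted p = 0.0834), and for the interaction 0 higher. The numbers name the libraries, and no pairing by number is stated in the sources used here.

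Signs turned as follows. With MPTP in Cre- mice, Nes was -0.50 with limma voom, -0.24 without Cre- MPTP 1 and Cre+ MPTP 4 and -0.26 without Cre- MPTP 1 and Cre+ MPTP 2. In Cre+ mice, limma voom gave -0.12 for Gfap and -0.016 for Aspg, and the fit without Cre- MPTP 1 and Cre+ MPTP 2 gave -0.26 and -0.19. Between genotypes after MPTP, Nes was 0.025 with no filter, 0.36 with limma voom, and 0.26 and 0.31 without the left-out pairs. Vim was 0.34 without Cre- MPTP 1 and Cre+ MPTP 4, and Emp1 was -0.0039 with DESeq2 size factors, -0.55 with limma voom, -0.29 with the replicate block, and -0.76 and -0.42 without the left-out pairs. After saline, limma voom gave 0.011 for S1pr3 and 0.060 for Amigo2. In the interaction, Vim was 0.48 without Cre- MPTP 1 and Cre+ MPTP 4, and Nes was 0.35 with limma voom and 0.074 and 0.12 without the left-out pairs.

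With each library left out in turn, genes called higher and lower ranged from 213 to 992 and 98 to 820 with MPTP in Cre- mice, from 0 to 31 and 0 to 1 in Cre+ mice, from 18 to 245 and 21 to 1581 between genotypes after MPTP, and from 0 to 96 and 0 to 103 for the interaction. Of the 10 genes, edgeR called 3 to 5 higher for MPTP in Cre- mice, 2 to 4 lower between genotypes after MPTP and 0 to 2 lower in the interaction. Log2 fold changes whose sign turned or call changed ranged as follows. With MPTP in Cre- mice, Nes ranged from -0.25 to 0.30, Cd44 from 0.64 to 1.35 and Amigo2 from 0.44 to 0.77. In Cre+ mice, Gfap ranged from -0.26 to 0.20, Cd44 from -0.39 to 0.051, Aspg from -0.18 to 0.43 and Tm4sf1 from -0.19 to 0.070. Between genotypes after MPTP, Vim ranged from -1.24 to 0.18, Nes from -0.24 to 0.30, Aspg from -3.13 to -2.09, S1pr3 from -0.29 to 0.11, Cd109 from -1.84 to -1.52, Emp1 from -0.39 to 0.63 and Amigo2 from -0.67 to -0.34. After saline, S1pr3 ranged from -0.21 to 0.25, Tm4sf1 from -0.082 to 0.087, Cd109 from -0.22 to 0.043 and Amigo2 from -0.11 to 0.034. In the interaction, Gfap ranged from -2.84 to -2.10, Vim from -1.10 to 0.33, Nes from -0.43 to 0.12, Aspg from -3.37 to -2.32, S1pr3 from -0.39 to 0.15 and Emp1 from -0.69 to 0.33.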
